A study of Mus musculus with 6 samples.

Results

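The genes described here are 9 genes of alternative macrophage activation: the receptor chain *Il4ra*, the transcription factor *Stat6*, and 7 genes known to respond to them in macrophages, *Arg1*, *Mrc1*, *Retnla*, *Mgl2*, *Cd209f*, *Pdcd1lg2* and *Klf4*. They were chosen by symbol, and all 9 were found among the 49315 Ensembl genes counted in every library. RNA came from F4/80-positive cells that were isolated with magnetic beads from the livers of 3 WT and 3 Lpcat3 KOMac mice, 1 library per mouse. The paper also calls these cells Kupffer cells, the macrophages resident in that organ. All mice were on a C57BL/6N background and received a high-fat diet (60% fat) for 16 weeks from an age of 8 to 12 weeks, and the labels give no sex for a single mouse, while *Ddx3y*, a gene of the Y chromosome, was at 114 to 155 CPM and *Xist* at no more than 3 counts in all 6 libraries. Both groups carry *Lpcat3* fl/fl. The Lpcat3 KOMac mice also carry 1 *LysM* Cre allele, which drives recombination in myeloid cells and leaves it incomplete, and the WT mice are Cre-negative littermates. Deletion of *Lpcat3* and presence of Cre therefore cannot be told apart.

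In alternative activation, IL-4 or IL-13 binds a receptor that contains the IL-4 receptor alpha chain, Janus kinases phosphorylate STAT6, and STAT6 moves to the nucleus and turns on a set of macrophage genes. Among these are arginase 1, which splits arginine into ornithine and urea, the mannose receptor CD206 (*Mrc1*), and the secreted protein RELM-alpha (*Retnla*). In the liver the same names have other sources: hepatocytes make arginase 1 for the urea cycle, and sinusoidal endothelial cells carry the mannose receptor. The comparison asks whether these genes differ between cells with and without myeloid deletion of *Lpcat3*, an acyltransferase that places arachidonic acid in phospholipids.

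In brief, no difference between genotypes was detected for any of the 9 genes. Levels of *Il4ra*, *Stat6*, *Mrc1* and *Klf4* spanned 1.29-fold to 1.73-fold over the 6 mice. *Arg1* varied 9.55-fold between mice, alongside albumin mRNA and the urea cycle transcripts. *Retnla*, *Mgl2*, *Cd209f* and *Pdcd1lg2* were low and differed more between mice of 1 genotype than between genotypes.

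Total counts lay between 44954224 and 71392812 per library, and levels are given as CPM, read counts brought to a common library size by TMM scaling. *Lpcat3* itself was at 85, 66.2 and 61.2 CPM in WT and 19.5, 33.3 and 19.4 CPM in Lpcat3 KOMac cells, here and below in the order of mouse 1, 2 and 3, and the groups did not overlap. All 7 Kupffer cell markers examined were present in every library, and their summed level was 25357 to 34498 CPM in WT and 19252 to 27691 CPM in Lpcat3 KOMac cells. Their log2 fold changes were negative for 7 of 7, from -0.46 to -0.11, against a median of -0.04 over all genes tested. *Clec4f* did not overlap between genotypes (-0.44, unadjusted p = 0.0423 in edgeR), and 5.2% of all genes tested were lower without overlap. After adjustment over all genes tested, 0 of the 7 were called. Markers of other cells were present too. The sum of 8 hepatocyte markers ranged from 2067 to 25055 CPM in WT and from 5400 to 14976 CPM in Lpcat3 KOMac cells, and the sum of 6 sinusoidal endothelial markers from 879 to 998 and from 970 to 1234 CPM. The 6 dendritic cell markers summed to 22.2 to 61.8 CPM in WT and 35.8 to 42.2 CPM in Lpcat3 KOMac cells. The T cell markers *Cd3d*, *Cd3e*, *Cd3g* and *Trac* were under 1 CPM in every library.

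Divided by exonic length (FPKM, CPM per 1000 exonic bases), *Mrc1* had the highest level, 238 ± 36.5 FPKM (SD over the 6 mice), above every other member in 6 of 6 libraries. *Arg1*, at 72.5 ± 64.7 FPKM, and *Stat6*, at 64.1 ± 6.27 FPKM, came next, and these neighbors were not separated, since *Arg1* exceeded *Stat6* in only 2 of 6 libraries. *Il4ra* followed at 19.3 ± 1.92 FPKM and *Klf4* at 6.11 ± 1.08 FPKM, neither range overlapping the one above it. The remaining genes formed a low group with overlapping ranges. *Pdcd1lg2* was at 1.74 ± 1.7 FPKM, *Retnla* at 0.941 ± 1.53, *Cd209f* at 0.473 ± 0.305 and *Mgl2* at 0.0956 ± 0.0655 FPKM. *Retnla* was above *Cd209f* in 2 of 6 libraries, so their order rests on few mice.

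**Figure D1:**
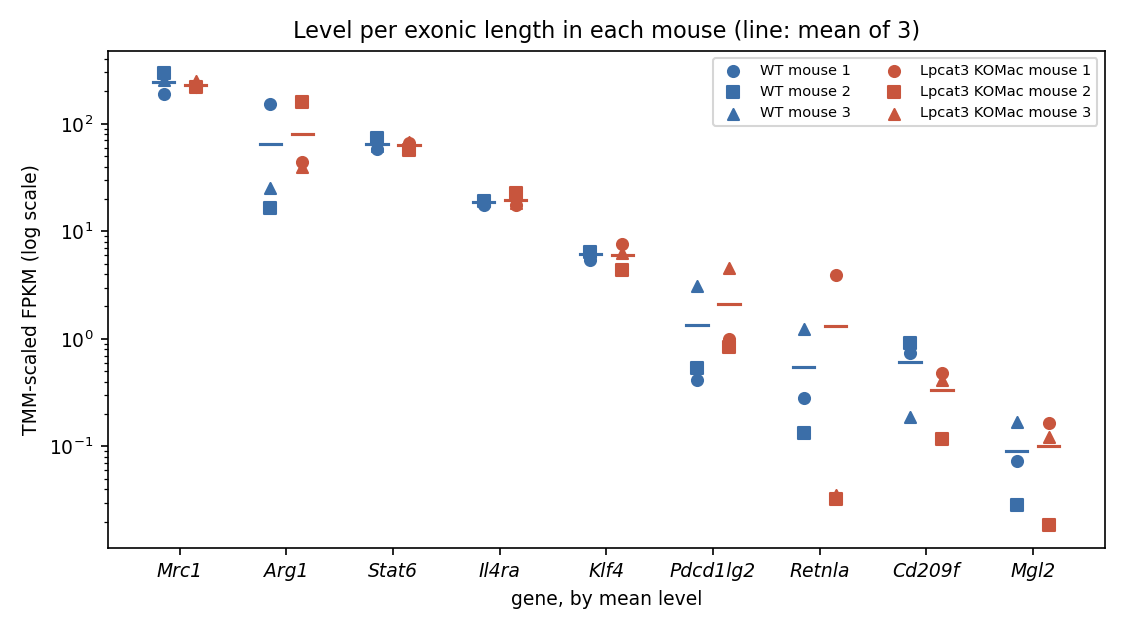
Level of each of the 9 genes per exonic length (TMM-scaled FPKM, log axis) in the 6 mice, with blue for WT, red for Lpcat3 KOMac, a symbol for each mouse number and a line at the mean of 3 mice. *Mrc1*, *Stat6*, *Il4ra* and *Klf4* span 1.29-fold to 1.73-fold, while *Arg1* and the 4 low genes spread more widely within each genotype.

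*Il4ra* (ENSMUSG00000030748, chromosome 7 of GRCm38, 125552120 to 125579474, plus strand) encodes the chain that binds IL-4. Its level was 106, 116 and 117 CPM in WT and 106, 137 and 111 CPM in Lpcat3 KOMac mice. Only Lpcat3 KOMac mouse 2 lay above the WT mice, and the groups overlapped. The log2 fold change (Lpcat3 KOMac against WT) was 0.06 (standard error 0.12), with a 95% interval of -0.23 to 0.36, or 0.851-fold to 1.28-fold. *Stat6* (ENSMUSG00000002147, chromosome 10, 127642986 to 127660957, plus strand), which carries the receptor's signal to the nucleus, was at 258, 324 and 276 CPM in WT and at 288, 248 and 299 CPM in Lpcat3 KOMac mice. Lpcat3 KOMac mouse 2 was lowest and WT mouse 2 highest, so the groups overlapped, while WT mice 1 and 3 lay below Lpcat3 KOMac mice 1 and 3. Its log2 fold change was -0.04 (standard error 0.12), with a 95% interval of -0.35 to 0.27. Levels of these 2 genes spanned 1.29-fold and 1.3-fold over the 6 mice, against a median span of 1.39-fold over the 10521 genes with a mean of at least 5 CPM. *Stat6* shares 40 exonic bases with *Nab2* on the other strand, which had at most 3521 counts in a library, and *Il4ra* shares 571 with *Gm44876*, which had at most 1 count.

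*Klf4* (ENSMUSG00000003032, chromosome 4, 55527143 to 55532466, minus strand), a zinc finger factor that acts with STAT6 in macrophages, was at 16.6, 19.5 and 20.1 CPM in WT and 23.1, 13.4 and 19.2 CPM in Lpcat3 KOMac mice. Lpcat3 KOMac mice gave both the highest and the lowest value, and of the genes with a mean of at least 5 CPM 72.7% had a smaller span than its 1.73-fold. This gave a log2 fold change of -0.01 with a standard error of 0.22 and a 95% interval of -0.54 to 0.52. Differences above 1.44-fold or below 0.686-fold lay outside this interval.

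*Mrc1* (ENSMUSG00000026712, chromosome 2, 14229392 to 14332057, plus strand), the mannose receptor, was at 1205, 1873 and 1635 CPM in WT and at 1402, 1402 and 1598 CPM in Lpcat3 KOMac mice. WT mouse 1 was lowest and WT mouse 2 highest, so the Lpcat3 KOMac mice fell inside the WT range. The span of 1.55-fold was wider than that of 64.7% of genes with a mean of at least 5 CPM. The log2 fold change was -0.10 (standard error 0.18), with a 95% interval of -0.54 to 0.34. In bulk RNA, a change in the number of cells of a type and a change in RNA per cell cannot be told apart. Beside *Mrc1*, the endothelial transcript *Stab2* was at 371, 489 and 482 CPM in WT and 501, 385 and 477 CPM in Lpcat3 KOMac mice, and the 6 endothelial markers had log2 fold changes between -0.24 and 0.86 with a median of 0.63. The share of *Mrc1* that came from endothelial cells was not tested.

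*Arg1* (ENSMUSG00000019987, chromosome 10, 24915208 to 24927470, minus strand) was at 223, 24.5 and 37.1 CPM in WT and at 65, 234 and 57.9 CPM in Lpcat3 KOMac mice. One mouse of each genotype, WT mouse 1 and Lpcat3 KOMac mouse 2, stood far above the other 4. Its log2 fold change was 0.33 (standard error 1.03), and the 95% interval ran from -2.24 to 2.89. The urea cycle enzyme *Ass1* had the same high mice, at 528, 57.8 and 68.9 CPM in WT and 137, 448 and 155 CPM in Lpcat3 KOMac cells. Albumin mRNA (*Alb*) was at 13054, 1205 and 1319 CPM in WT and at 3131, 9289 and 3138 CPM in Lpcat3 KOMac cells. Per 1000 CPM of *Alb*, *Arg1* was at 17.1, 20.4 and 28.2 CPM in WT and 20.8, 25.2 and 18.5 CPM in Lpcat3 KOMac cells. The 9.55-fold span of *Arg1* was thus 1.65-fold relative to *Alb* and 1.44-fold relative to *Ass1*. Relative to the urea cycle genes *Otc* and *Cps1* it was wider, 2.81-fold and 3.97-fold, with the highest ratio of both in WT mouse 3. Relative to *Alb*, the genotypes overlapped, with means of 21.9 ± 5.68 in WT and 21.5 ± 3.43 in Lpcat3 KOMac cells (SD, n = 3 each; exact permutation test, two-sided p = 1).

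Over the 6 mice, log2 CPM of *Arg1* and the mean log2 CPM of the 8 hepatocyte markers had Pearson's r = 0.93 (exact permutation test, two-sided p = 0.0153, adjusted p = 0.113 over the 9 genes) and Spearman's rho = 0.89 (exact permutation p = 0.0333, adjusted 0.15). Without the 2 mice farthest from the median, WT mice 1 and 3, r was 0.99, and with each mouse left out in turn it lay between 0.92 and 0.96. The relation of *Mrc1* had the opposite sign, with r = -0.89 (exact permutation p = 0.025, adjusted p = 0.113), rho = -0.89 (exact permutation p = 0.0333, adjusted 0.15) and r = -0.89 without the same 2 mice. None of the 9 relations passed the correction, and the other 7 had r between -0.68 and 0.04. Leaving out the same 2 mice took r from -0.68 to -0.99 for *Stat6* and from 0.04 to -0.97 for *Cd209f*. An extreme r over so few mice was thus not particular to *Arg1*. CPM are shares of a library, so these levels are not independent of each other. Without WT mouse 1 the log2 fold change of *Arg1* was 1.95 (standard error 0.73, unadjusted p = 0.0411 and adjusted p = 0.384 in edgeR). In the same fit, 13 of 13 hepatocyte and urea cycle genes were also higher in Lpcat3 KOMac cells, by 0.96 to 2.97 on the log2 scale. Leaving out another mouse turned the direction of *Arg1*, to -0.63 without Lpcat3 KOMac mouse 2, -0.13 without WT mouse 2 and -0.06 without WT mouse 3. With all 6 mice, its log2 fold change was 0.20 with the hepatocyte mean as a covariate and -0.71 with the endothelial mean.

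**Figure D2:**
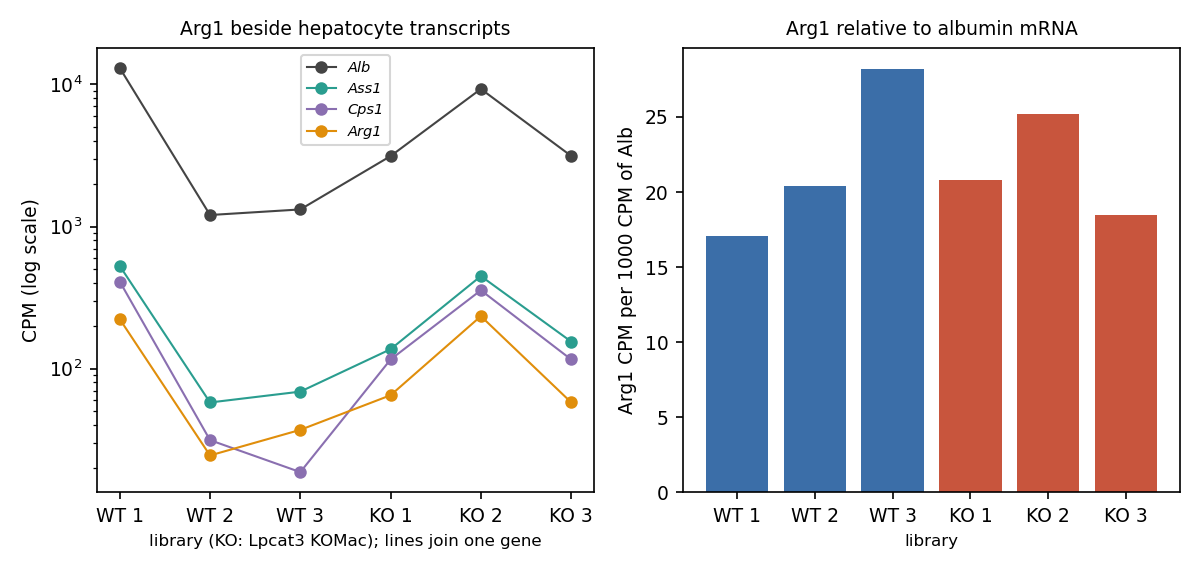
Left, CPM (log axis) of *Arg1*, the urea cycle genes *Ass1* and *Cps1*, and *Alb* in the 6 libraries (KO, Lpcat3 KOMac), with lines joining the values of 1 gene. Right, *Arg1* CPM per 1000 CPM of *Alb* in the same libraries, from 17.1 to 28.2. All 4 genes are highest in WT mouse 1 and Lpcat3 KOMac mouse 2.

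*Retnla* and *Pdcd1lg2* carry, in the sequence before their start, a spaced palindrome that STAT6 is known to bind, TTC and GAA with any 4 bases between them. Their upstream sequences are shown with that of *Mrc1*, the most abundant member, to let them be compared. Windows from 250 bases before to 50 bases after the start were held by RefSeq (GRCm38.p6) for 8 of the 9 genes, and the palindrome, which reads the same on both strands, was in 2 of these 8 and in 6.95% of all 32851 windows. It began 145 bases before the RefSeq start of *Retnla* and 82 bases before that of *Pdcd1lg2*. TTC and GAA with 3 bases between them, the spacing of other STAT factors, were in 0 of the 8 and in 8.3% of all windows. The sequences below run 5′ to 3′ on the strand of the gene and end where the counted gene begins, with the palindrome in capitals. They lie at chr16:48842359-48842551, chr19:29410669-29410918 and chr2:14229164-14229391, all on the plus strand. A match is a run of letters and says nothing of binding in these cells.
Retnla: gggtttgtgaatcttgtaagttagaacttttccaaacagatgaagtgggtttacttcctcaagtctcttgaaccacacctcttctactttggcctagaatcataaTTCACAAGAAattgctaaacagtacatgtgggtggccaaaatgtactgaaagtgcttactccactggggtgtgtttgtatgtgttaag
Pdcd1lg2: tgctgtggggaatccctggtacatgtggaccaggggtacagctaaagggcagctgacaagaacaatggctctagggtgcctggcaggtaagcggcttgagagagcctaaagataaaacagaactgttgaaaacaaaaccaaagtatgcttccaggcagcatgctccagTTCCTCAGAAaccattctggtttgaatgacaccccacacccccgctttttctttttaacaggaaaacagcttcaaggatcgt
Mrc1: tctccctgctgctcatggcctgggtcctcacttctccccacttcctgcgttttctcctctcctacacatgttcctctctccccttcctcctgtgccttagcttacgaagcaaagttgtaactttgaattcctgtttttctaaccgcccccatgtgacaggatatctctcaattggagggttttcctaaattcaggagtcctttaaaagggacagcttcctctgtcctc

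*Retnla* (ENSMUSG00000061100, chromosome 16, 48842552 to 48844461, plus strand) encodes RELM-alpha, a secreted hallmark of alternative activation. It had 11, 4 and 34 counts in WT mice (0.169, 0.0799 and 0.744 CPM) and 136, 1 and 1 counts in Lpcat3 KOMac mice (2.34, 0.0193 and 0.0212 CPM). One Lpcat3 KOMac mouse had the highest level and the other 2 the lowest, at or under the floor of 3 counts, so the groups overlapped. The gene reached the count threshold in too few libraries for the filter of the main test. The difference of mean log2 CPM was -0.42 (exact permutation test over 3 mice against 3, two-sided p = 0.8), whereas the mean CPM in Lpcat3 KOMac cells was 240% of that in WT and the edgeR fit without the filter gave a log2 fold change of 1.30 (unadjusted p = 0.52). The sign thus turned on the scale of the average. Its paralog *Retnlg*, known from neutrophils, also had its highest counts in Lpcat3 KOMac mouse 1 and WT mouse 3, with 123 and 39 counts against 13 to 26 in the other mice, and *Retn* and *Retnlb* had at most 2 and 0 counts. The handling of reads shared between such paralogs is not stated, and their counts are uncertain to that extent. Other neutrophil markers did not follow *Retnlg*. *S100a8* and *S100a9* were highest in Lpcat3 KOMac mouse 3, at 2.19 and 2.83 CPM, and *Csf3r* in WT mouse 2, at 155 CPM. In Lpcat3 KOMac mouse 1 and WT mouse 3, *Prg4*, a marker of peritoneal macrophages, was at 49.1 and 36.7 CPM against 5.17 to 24 CPM elsewhere, and *Alox15* was at 34 and 22.2 CPM against 1.52 to 11.6 CPM. Of the 5 peritoneal and capsular macrophage markers, *Prg4*, *Alox15* and *Icam2* were highest in these 2 mice and *Gata6* and *Cd207* were not, with *Gata6* highest in Lpcat3 KOMac mouse 2 and WT mouse 1. The sum of the list, most of it *Cd207* at 143 to 340 CPM, was 270 to 383 CPM in WT and 195 to 375 CPM in Lpcat3 KOMac cells. The part of such cells in the *Retnla* level was not tested.

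*Pdcd1lg2* (ENSMUSG00000016498, chromosome 19, 29410919 to 29471157, plus strand) encodes PD-L2, a ligand of the inhibitory receptor PD-1. It was at 0.677, 0.878 and 5.07 CPM in WT and at 1.64, 1.37 and 7.52 CPM in Lpcat3 KOMac mice. WT mouse 3 and Lpcat3 KOMac mouse 3 were high, and each Lpcat3 KOMac mouse was above the WT mouse of its number, but mouse numbers come from the labels alone and pair nothing. The log2 fold change was 0.67 (standard error 1.05), with a 95% interval of -1.94 to 3.28. It was 2.17 without WT mouse 3 and -0.51 without Lpcat3 KOMac mouse 3, so single mice set its size and direction. The dendritic cell marker *Clec9a* was at 13.8, 25.6 and 51.3 CPM in WT and at 30.4, 23.9 and 31.3 CPM in Lpcat3 KOMac mice, highest in the same 2 mice, the last by a small margin. *Zbtb46*, a transcription factor of dendritic cells, was at 5.74, 3.85 and 5.97 CPM in WT and 9.13, 8.97 and 5.57 CPM in Lpcat3 KOMac mice and did not follow *Pdcd1lg2*. Of the 6 dendritic cell markers, *Clec9a*, *Flt3* and *Ccr7* were highest in the mice numbered 3 and *Zbtb46*, *Xcr1* and *Cd209a* were not. Over the 6 dendritic cell markers, log2 fold changes lay between -0.27 and 0.60. The part of dendritic cells in the *Pdcd1lg2* level was not tested.

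*Cd209f* (ENSMUSG00000051906, chromosome 8, 4102787 to 4105835, minus strand), a C-type lectin of the DC-SIGN family, was at 1.46, 1.8 and 0.372 CPM in WT and 0.947, 0.231 and 0.829 CPM in Lpcat3 KOMac mice. WT mice 1 and 2 were above all other mice, but WT mouse 3 was below 2 Lpcat3 KOMac mice. The mean in Lpcat3 KOMac cells was 55.3% of that in WT, a log2 fold change of -0.86 (standard error 0.74) with a 95% interval of -2.69 to 0.98. Its direction was the same with each mouse left out, from -1.28 to -0.44. Of 6 other CD209 genes, *Cd209a*, *Cd209c*, *Cd209d*, *Cd209e* and *Cd209g* stayed under 1 CPM in every library. The remaining one, *Cd209b*, was at 1.55, 3.03 and 0.853 CPM in WT and 1.6, 0.617 and 1.13 CPM in Lpcat3 KOMac mice, and its log2 fold change was -0.70 (standard error 0.58). *Cd209b* and *Cd209f* were both highest in WT mouse 2 and lowest in Lpcat3 KOMac mouse 2, and so were 6 of the 7 Kupffer cell markers, among them the receptor *Timd4*, at 938 and 123 CPM in these mice. The part of Kupffer cell content in the *Cd209f* difference was not tested.

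*Mgl2* (ENSMUSG00000040950, chromosome 11, 70130329 to 70137550, plus strand), a galactose-type lectin typical of IL-4-treated macrophages and of dendritic cells, had 10, 3 and 16 counts in WT and 20, 2 and 12 counts in Lpcat3 KOMac mice, or at most 0.35 CPM. Mouse 2 of each genotype was at or under the floor of 3 counts. The log2 fold change was 0.20 (standard error 0.89), with a 95% interval of -1.98 to 2.39, which holds differences of several fold in both directions. Its neighbor and close paralog *Clec10a* (chromosome 11, 70156197 to 70170834), whose lectin also binds galactose residues, was far higher, at 17.1, 21.6 and 22.8 CPM in WT and 15.4, 15.4 and 17.6 CPM in Lpcat3 KOMac cells. The groups of *Clec10a* overlapped, and the log2 fold change was -0.35 (standard error 0.14, unadjusted p = 0.0496, adjusted p = 1 in edgeR).

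**Figure D3:**
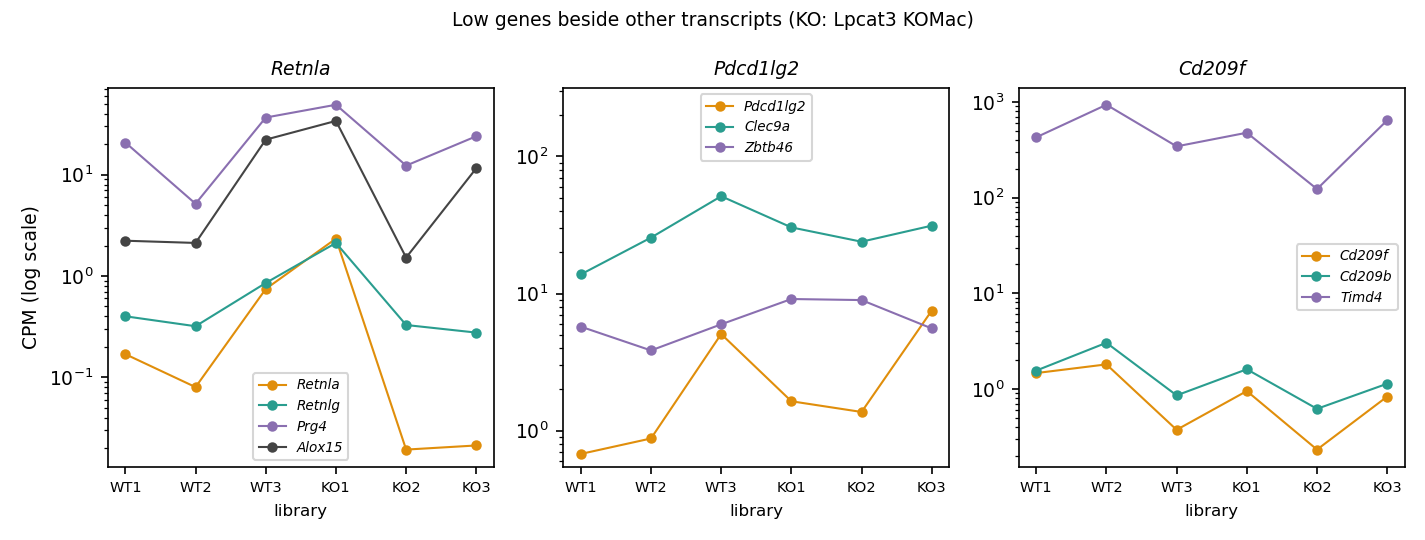
CPM (log axis) of *Retnla*, *Pdcd1lg2* and *Cd209f* in the 6 libraries (KO, Lpcat3 KOMac), each beside transcripts named in the text, with lines joining the values of 1 gene. *Retnla* peaks in Lpcat3 KOMac mouse 1 at 2.34 CPM, *Pdcd1lg2* in both mice numbered 3, and *Cd209f* is lowest in Lpcat3 KOMac mouse 2.

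Of the 9 genes, 8 had enough counts in enough libraries for the test of all 16134 genes, and 0 of the 8 were called (quasi-likelihood test of edgeR, Benjamini-Hochberg adjusted p = 1 for each of the 8). Over all genes tested, 0% were called by this rule and 2.64% came below 0.05 in unadjusted p-value. In edgeR, DESeq2 and limma-voom, 0 of the 8 reached an unadjusted p-value under 0.05. DESeq2 called 0.112% of the genes it adjusted, *Lpcat3* among them (log2 fold change -1.55, adjusted p = 0.00386 in DESeq2, against -1.56 and adjusted p = 1 in edgeR). The genotypes did not overlap for 7.49% of all genes tested (higher in Lpcat3 KOMac cells for 2.29%, lower for 5.2%), and for 0 of the 8 members. The median log2 fold change of the 8 was 0.02, against -0.04 over all genes. With 3 mice against 3, a single gene cannot reach an exact permutation p-value below 0.1, and the smallest among the 9 genes was 0.5.

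**Figure D4:**
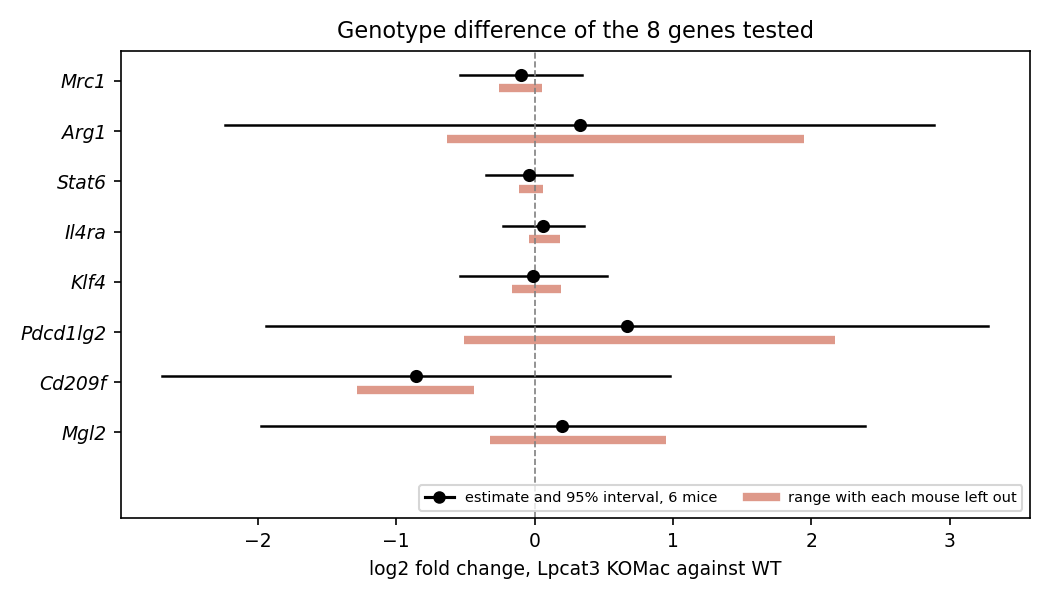
Log2 fold change of the 8 genes tested (Lpcat3 KOMac against WT), with black points and lines for the estimate and its 95% interval over 6 mice and red bars for the range of estimates over fits that leave out 1 mouse each. Intervals of *Il4ra*, *Stat6*, *Mrc1* and *Klf4* stay within 0.54 of 0, whereas that of *Arg1* runs from -2.24 to 2.89.

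The wider IL-4 pathway was read from 3 further lists with 35 genes, of which 33 were tested and 0 called in edgeR, DESeq2 or limma-voom. At an unadjusted p-value under 0.05, edgeR listed 6 of the 33, against 2.64% of all genes tested. The median log2 fold change of the 33 genes was 0.08. Among ligands, receptor chains and kinases, *Il13* had 0 counts in every library and *Il4* stayed between 0.477 and 0.723 CPM. The partner chains *Il2rg* and *Il13ra1* were at 54.6 to 104 and 120 to 170 CPM, and *Jak1*, the most abundant kinase of the list in CPM, was at 316 to 396 CPM. The 9 genes tested from this list had log2 fold changes from -0.26 to 0.58, with a median of 0.03. *Jak3*, which signals from the common gamma chain, did not overlap between genotypes (35.7 to 46.5 CPM in WT and 47.3 to 54.4 CPM in Lpcat3 KOMac mice). Its log2 fold change was 0.30 (standard error 0.12), below the size set for naming genes, and it is named after its values were seen. The 10 feedback and transcription factor genes had a median log2 fold change of -0.04, with 0 of 10 at an unadjusted p-value under 0.05.

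The other IL-4 macrophage targets, 15 genes of which 14 were tested, had a median log2 fold change of 0.36. All 6 genes with an unadjusted p-value under 0.05 were in this list, and 5 of them were higher in Lpcat3 KOMac cells. The genotypes did not overlap for 3 of the 14, all higher in Lpcat3 KOMac cells, and for 4 of the 33 over the 3 lists. Over all genes tested the share was 2.29% in that direction and 7.49% in either direction. The lists were chosen with earlier results of these data known, so these counts are no independent test. *Chil3*, the chitinase-like protein Ym1, was at 1.12, 1.04 and 2.12 CPM in WT and at 8.77, 2.43 and 2.7 CPM in Lpcat3 KOMac mice. The highest value came from Lpcat3 KOMac mouse 1, and the log2 fold change was 1.70 (standard error 0.62, unadjusted p = 0.0354, adjusted p = 1 in edgeR). *Flt1*, a VEGF receptor, was at 16.5, 12.7 and 16.6 CPM in WT and at 32.9, 23.4 and 17.5 CPM in Lpcat3 KOMac mice, a log2 fold change of 0.69 (standard error 0.25). *Flt1* is also an endothelial gene, and the endothelial markers *Kdr* (log2 fold change 0.79, standard error 0.27) and *Ptprb* (0.77, standard error 0.26) lay close to it. The other markers of that list ran from -0.24 for *Pecam1* and 0.02 for *Stab2* to 0.49 for *Clec4g* and 0.86 for *Lyve1*. *Cdh1*, the adhesion molecule E-cadherin, was at 0.785, 0.579 and 0.678 CPM in WT and 0.93, 1.12 and 1.1 CPM in Lpcat3 KOMac mice, a log2 fold change of 0.62 (standard error 0.25). None of these 3 genes passed the adjustment. Of 7 markers of recruited macrophages and monocytes, a list that also holds *Chil3*, log2 fold changes ran from 0.36 to 1.81. In edgeR, 0 of the 7 were called. *Gpnmb* (1.17, standard error 0.68, unadjusted p = 0.141 in edgeR) and *Spp1* (1.81, standard error 0.71, unadjusted p = 0.0463 in edgeR) did not overlap either. The sums of the list ran from 109 to 467 CPM in WT and from 445 to 510 CPM in Lpcat3 KOMac cells. The part of recruited and of endothelial cells in these differences was not tested.

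**Figure D5:**
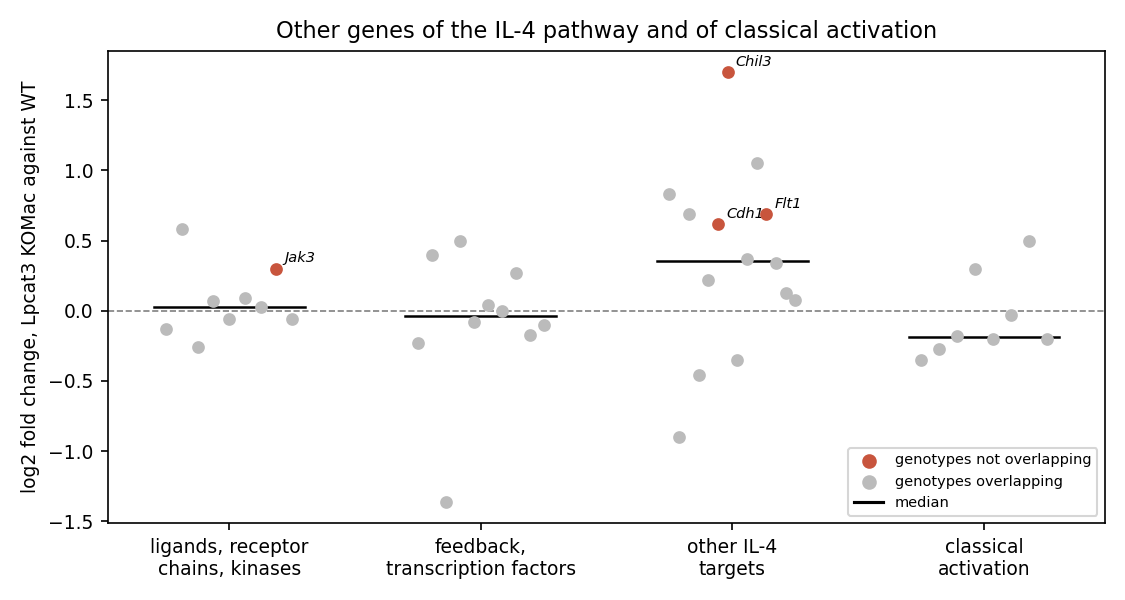
Log2 fold change (Lpcat3 KOMac against WT) of the tested genes in 3 IL-4 pathway lists and 1 list of classical activation, 1 point per gene with a line at the median of each list. Red points mark the 4 genes whose genotypes do not overlap in CPM, *Jak3*, *Chil3*, *Flt1* and *Cdh1*.

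Genes of classical activation, the state induced by interferon and bacterial products, served as the counterpart. Of 8 genes, 8 were tested and edgeR called 0, with 0 at an unadjusted p-value under 0.05, and the genotypes overlapped for all 8. Their median log2 fold change was -0.19, and single genes ran from -0.35 to 0.50. *Nos2*, the nitric oxide synthase that competes with arginase 1 for arginine, was at 0.339, 0.14 and 1.42 CPM in WT and at 0.568, 1.76 and 0.34 CPM in Lpcat3 KOMac mice.

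Patterns like those of the members were sought over the 6 libraries among 10521 tested genes with a mean of at least 5 CPM, by Pearson's r of log2 CPM. With 6 points and so many candidates high values of r are common, all points share their libraries, and the values only describe. *Arg1* was most like *Gk* (glycerol kinase, r = 0.998), *Cipc* (0.996) and *Apoa4* (an apolipoprotein, 0.994). *Mrc1* was most like *H3f3b* (0.996), *Pik3cg* (0.996) and *Camk2g* (0.992), and *Stat6* most like *Prdm2* (0.995), *Dnajc5* (0.993) and *Rab2b* (0.992). *Apoa4*, at 535 and 542 CPM in WT mouse 1 and Lpcat3 KOMac mouse 2 and at most 117 CPM in the others, showed the same 2 high mice as *Arg1*. *Il4ra* was most like *Rnf150*, *Ehd4* and *Thop1* (r from 0.977 to 0.982). *Klf4* was most like *Abca1* (0.987), the cholesterol exporter, with *Cog3* and *Tsc22d2* next. *Abca1* and *Klf4* were both highest in Lpcat3 KOMac mouse 1 and lowest in Lpcat3 KOMac mouse 2, at 717 and 435 CPM for *Abca1*. For the low genes the nearest patterns were *Odf2l*, *Zfp317* and *Olfml3* for *Pdcd1lg2*, *Slc15a4*, *Snap29* and *Lats2* for *Cd209f*, and *Hspa4*, *Npepps* and *Hsf1* for *Mgl2*, with r between 0.967 and 0.995.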

How the data were processed

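The authors deposited, for each mouse, the read count of every Ensembl gene without normalization, in the layout of featureCounts. The submitters' processing notes name Trimmomatic 0.36, STAR 2.5.2b, featureCounts, Subread 1.5.2 and GRCm38. Libraries were poly-A selected. Strand setting, read filters and the treatment of multi-mapping reads are not given in the sources used here. Symbols were matched to 48970 of the 49315 identifiers through GENCODE M21. Gene positions are those of the files.

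The genotypes were compared in edgeR 4.0.16 under R 4.3.3 (TMM, default expression filter with a minimum count of 10, quasi-likelihood test with robust dispersion, genotype as the only term), with Benjamini-Hochberg adjustment over all 16134 genes tested and a threshold of 0.05. The standard error of a log2 fold change is its size over the root of the F statistic. Log2 CPM used a prior count of 2. A level of 3 counts or fewer was taken as the floor. The floor covers counting error only, whereas the 95% intervals of log2 fold changes come from the fit and include the spread between mice. Alternatives were DESeq2 1.42.0, limma-voom (limma 3.58.1), other scalings, filters, dispersions and covariates, a length offset, the replicate block and each mouse left out. On simulated data with 200 genes changed 4-fold, edgeR recovered 200 and called 10 others among 15929 genes tested. This recovery does not give the power of the test in the real libraries. There edgeR called 0 of 16134 genes and missed the deleted gene *Lpcat3*, whose log2 fold change was -1.56, smaller than 4-fold. The lack of calls among the members therefore does not exclude differences of that size.

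Genotype and replicate number came from the sample labels. The members and lists were chosen with earlier results of these data known. The genes named were the 9 members, *Lpcat3*, paralogs of members, listed genes called or, where none was, those not overlapping with a log2 fold change of at least 0.5 in size or under 1 CPM in every library, and the 3 genes most alike in pattern. Other genes are named beside a result. The libraries are separate mice, and no pair was a second copy (chi-square per degree of freedom from 36.95 to 472). Lipid, PCR and histology data were not analysed here.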

Additional observations from a re-analysis of the deposited data

How the results depend on the processing

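Members called and pathway genes called were 0 under all alternatives, and genes called over the whole table were 0 except with DESeq2, which called 15. Directions turned for some members. *Arg1*, at 0.33 in the main fit, was -0.71 with the endothelial covariate. *Mrc1* was 0.01 with the hepatocyte and 0.11 with the endothelial covariate. *Stat6* was 0.05 with total counts alone, 0.00 with the hepatocyte and 0.10 with the endothelial covariate. *Mgl2* was -0.07 with the endothelial covariate. *Klf4* was 0.00 with DESeq2's size factors, 0.08 with total counts, 0.05 with the hepatocyte covariate and 0.02 with the length offset. The cause was not tested. Total counts alone moved the median of all genes from -0.04 to 0.06. With each mouse left out, the log2 fold changes ranged from -0.63 to 1.95 for *Arg1*, -0.26 to 0.05 for *Mrc1*, -0.04 to 0.18 for *Il4ra*, -0.11 to 0.06 for *Stat6*, -0.32 to 0.95 for *Mgl2*, -0.51 to 2.17 for *Pdcd1lg2* and -0.16 to 0.19 for *Klf4*. *Retnla*, -0.42 as a difference of mean log2 CPM, was 1.30 in edgeR without the filter and 0.83 to 1.88 in the fits without 1 mouse that kept it. All of these fits hold Lpcat3 KOMac mouse 1, with its 136 counts. The fits without that mouse or without WT mouse 3 dropped the gene, so this range does not show a stable direction. *Cd209f* was negative in 18 of 18 alternatives. With the urea cycle list in place of the hepatocyte markers, r was 0.08 for *Il4ra* and -0.06 for *Cd209f*. With the hepatocyte markers and each mouse left out, r ranged from -0.86 to 0.45 for *Il4ra* and from -0.40 to 0.49 for *Cd209f*. With the replicate block 0 genes were called and 138 had an unadjusted p-value under 0.05, against 426 without it. That number was 1470 with the hepatocyte covariate, 215 with the endothelial covariate, and 2028 without WT mouse 1, *Arg1* being the only member among those 2028. Without one of the other mice it was 179 to 543. Deviations of same-numbered libraries correlated at -0.3, -0.6 and 0.36 across genes, and 1 of 6 libraries correlated best with its own number, so the numbers were not used as pairs. Depth limits *Retnla* and *Mgl2*, with 1 to 3 counts in 2 libraries each.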

Other observations

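A pair of genes of the IL-4 lists that fall outside the naming rule, and were chosen after their values were seen, also varied with single mice. *Slc7a2*, a carrier that brings arginine into cells, was at 174, 28.8 and 60.2 CPM in WT and at 76.7, 147 and 63.7 CPM in Lpcat3 KOMac mice, highest in the same 2 mice as *Arg1*, and its log2 fold change was 0.13 (standard error 0.71). *Cish*, a feedback inhibitor of cytokine signaling, was at 12.1 CPM in WT mouse 1 and between 1.02 and 3.11 CPM in the other 5 mice, and its log2 fold change was -1.36 (standard error 1).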
